A study of Mus musculus with 72 samples.

Results

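Meningeal fibroblast and collagen genes are the genes of the connective tissue sheets that wrap the brain and of its larger vessels, and 10 of them were followed across 72 mouse hippocampi: Col1a1, Col1a2, Col3a1, Dcn, Lum, Ogn, Igf2, Slc6a13, Aldh1a2 and Islr. A probe set of the array was taken for a gene when its annotation held exactly 1 symbol and that symbol was the gene's, and each gene had a single such probe set. They are 10 of the 18820 genes with such a probe set; the array holds 35556 probe sets in all, of which 21218 carried 1 symbol.

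All mice were C57BL/6J males, 2 months of age, housed singly and handled on 3 days, and both hippocampi of a mouse went to 1 array. Trained mice (FC) received a single foot shock of 2 s and 1.5 mA in a chamber at Zeitgeber time (ZT) 3 and were dissected after 30 minutes in group FC30, after 4 h in FC4, after 12 h in FC12 and after 24 h in FC24. RT30 mice were trained in the same way, returned to the chamber for 5 minutes at 24 h and dissected 30 minutes after that test. CC30, CC4 and CC12 mice were handled, never trained, and dissected at the clock times of the 30-minute, 4 h and 12 h groups. Each of the 8 groups held 9 mice from separate conditioning experiments. CC30 was the control of FC30, RT30 and FC24, so that those comparisons share their control mice. The comparisons ask whether a gene changed after acquisition, consolidation or retrieval of the context memory, or with the time of day.

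Fibroblasts of the pia and arachnoid lay down the collagen fibrils, and the small proteoglycans that coat them, in the membrane on the hippocampal surface and along vessels that enter it. They also carry solute transporters and release growth factors and retinoic acid towards the tissue beneath. In bulk hippocampal RNA, fewer cells of a type and less RNA per cell cannot be told apart. The measured values are log2 intensities, on which a difference of 1 is a doubling of signal.

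Array medians lay between 5.82 and 5.88, and the arrays correlated with each other at r between 0.968 and 0.997. Against the other 8 arrays of their group, 6 arrays stood apart on the first or the second principal component of all probe sets (17.4% and 7.20% of the variance): CC12 replicate 2, CC30 replicate 3, FC12 replicate 2, FC24 replicate 4 and FC30 replicate 4 on the first, and CC4 replicate 8 on the second. Results were also computed without them. An F test for the replicate numbers 1 to 9 called 0 of the 10 genes (0.045% of all probe sets) and had 5 of 10 below an unadjusted 0.05 (9.86% of all). The mean profile of the 10 genes, in SD units from the group mean, averaged 0.58, 0.46 and 0.55 for numbers 1, 2 and 3 and -0.63 for number 8, and number 8 lay below its group mean in 7 of 8 groups.

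The 10 genes differed widely in how much they varied from mouse to mouse. Slc6a13, the GAT2 transporter for GABA and taurine, ranged from 6.17 to 8.30 over the 72 mice around a mean of 7.29, a 4.38-fold span. Ogn, which encodes osteoglycin, a leucine-rich proteoglycan that binds collagen, ranged from 4.87 to 6.86 around 5.77, a 3.97-fold span. Aldh1a2, the retinaldehyde dehydrogenase that makes retinoic acid, ranged from 4.86 to 6.73 around 5.80, a 3.66-fold span. Igf2, an imprinted growth factor of the insulin family, ranged from 7.44 to 9.01 around 8.15, a 2.97-fold span. These were the most variable genes of the 10: their SDs over the 72 mice, between 0.38 and 0.47, lay above those of at least 96.7% of all probe sets.

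The fibrillar collagens and the other proteoglycans spanned less. Col1a1, the alpha-1 chain of type I collagen, ranged from 6.12 to 6.72 (SD 0.14, n = 72), the narrowest span of the 10 at 1.52-fold. Col1a2, which encodes the partner alpha-2 chain, ranged from 5.83 to 6.95 (SD 0.22, n = 72). Col3a1, the chain of type III collagen, ranged from 4.24 to 5.46 (SD 0.16, n = 72). Among the proteoglycans that regulate fibril width, decorin (Dcn) ranged from 9.19 to 10.24 (SD 0.23, n = 72) and lumican (Lum) from 4.39 to 5.47 (SD 0.19, n = 72). Islr, an immunoglobulin-domain protein with leucine-rich repeats made by mesenchymal cells, ranged from 6.63 to 7.69 (SD 0.23, n = 72). The median SD of the 10 genes was 0.23, and that of all probe sets 0.12. The mean levels of Col3a1 (4.98) and Lum (4.84) lay below the median level of all probe sets, 5.835.

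**Figure D1:**
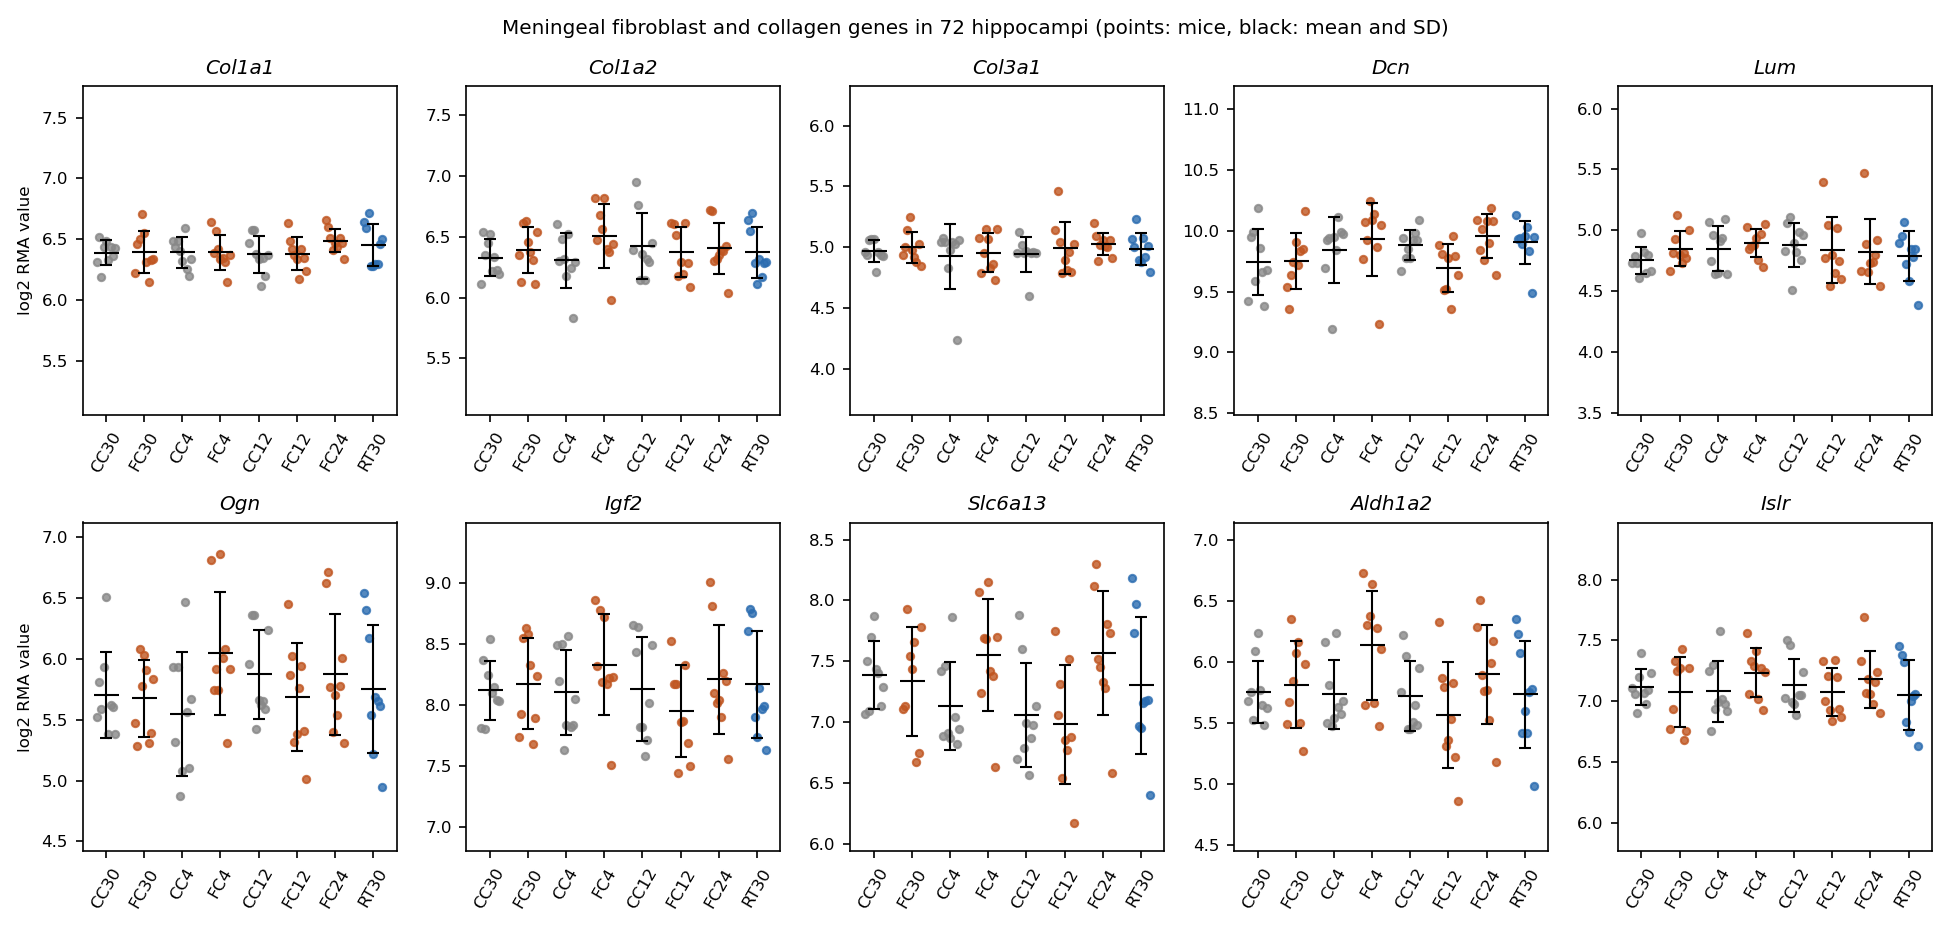
Log2 RMA value (vertical axis, the same height of scale in every panel) of each of the 10 genes in the 8 groups, with 1 point per mouse and the mean and SD of 9 mice in black; grey marks untrained, orange trained and blue retrieval mice. Over the 72 mice Slc6a13 spans 6.17 to 8.30 and Col1a1 6.12 to 6.72, and the groups overlap in every panel.

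Nearly all of this spread lay within groups. The share of a gene's variance that fell between the 8 group means was 18.8% for Slc6a13, 16.5% for Aldh1a2, 15.3% for Dcn and 10.5% for Ogn. For the other 6 genes it was between 3.80% and 7.48%, and the median over all probe sets was 10.9%. The SD among the 9 mice of a group ran from 0.28 (CC30) to 0.56 (RT30) for Slc6a13, and from 0.25 (CC30) to 0.45 (FC4) for Aldh1a2. CC30 had the smallest SD of the 8 groups for 7 of the 10 genes, the exceptions being Col1a1 (FC24), Dcn (CC12) and Ogn (FC30).

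Slc6a13 shows how the groups lay over each other. Its lowest, median and highest mice were 7.07, 7.40 and 7.87 in CC30, 6.67, 7.44 and 7.93 in FC30, 6.82, 6.94 and 7.86 in CC4 and 6.63, 7.68 and 8.15 in FC4. They were 6.57, 6.98 and 7.88 in CC12, 6.17, 6.88 and 7.75 in FC12, 6.58, 7.52 and 8.30 in FC24 and 6.40, 7.17 and 8.18 in RT30. Every group thus reached 7.75 or above, and the groups overlapped throughout. By mean, the order was FC24 (7.57), FC4 (7.55), CC30 (7.39), FC30 (7.33), RT30 (7.30), CC4 (7.13), CC12 (7.06) and FC12 (6.98), and no gap between neighbours in that order reached 0.28, the smallest SD of a group. For all 10 genes, the lowest mouse of the group with the highest mean lay below the highest mouse of the group with the lowest mean. The distance between those 2 means was from 0.61 (Col3a1) to 1.53 (Aldh1a2) pooled within-group SDs.

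The mice differed along an axis that the genes shared. After each group mean was subtracted, all 45 pairs of the 10 genes had a positive Pearson r over the 72 mice, with a median of 0.64, and Spearman's rho had a median of 0.63. The 10 pairs among Ogn, Igf2, Slc6a13, Aldh1a2 and Islr had r between 0.80 and 0.92. The first axis of the 10 standardised genes held 67.2% of their variance. In a permutation test within groups (100000 resamples, two-sided), 30 of the 45 pairs reached the smallest p possible, 1e-05. After Benjamini-Hochberg adjustment over the 45 pairs, 41 were below 0.05 by r and 39 by rho. Because the genes were picked with earlier results known, these p-values describe the pairs and are no independent evidence for the set.

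Slc6a13 and Aldh1a2 were the closest pair (r = 0.92, rho = 0.87, permutation p = 1e-05 for each, 72 mice). Without the 2 mice farthest from the median of Slc6a13, r was 0.91. Within single groups of 9 mice it ran from 0.83 in CC12 to 0.97 in FC24, so that a mouse high for the transporter was high for the retinoic acid enzyme in each group. The chains of type I collagen, which assemble into 1 trimer, correlated at r = 0.77 (rho = 0.74), and Col1a2 went with Slc6a13 at r = 0.85. Col1a1 was closest, among the 10, to Igf2 (r = 0.79). The median r of the 45 pairs within a group was lowest in CC30 (0.55) and highest in RT30 (0.80); this difference between groups was not tested.

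**Figure D2:**
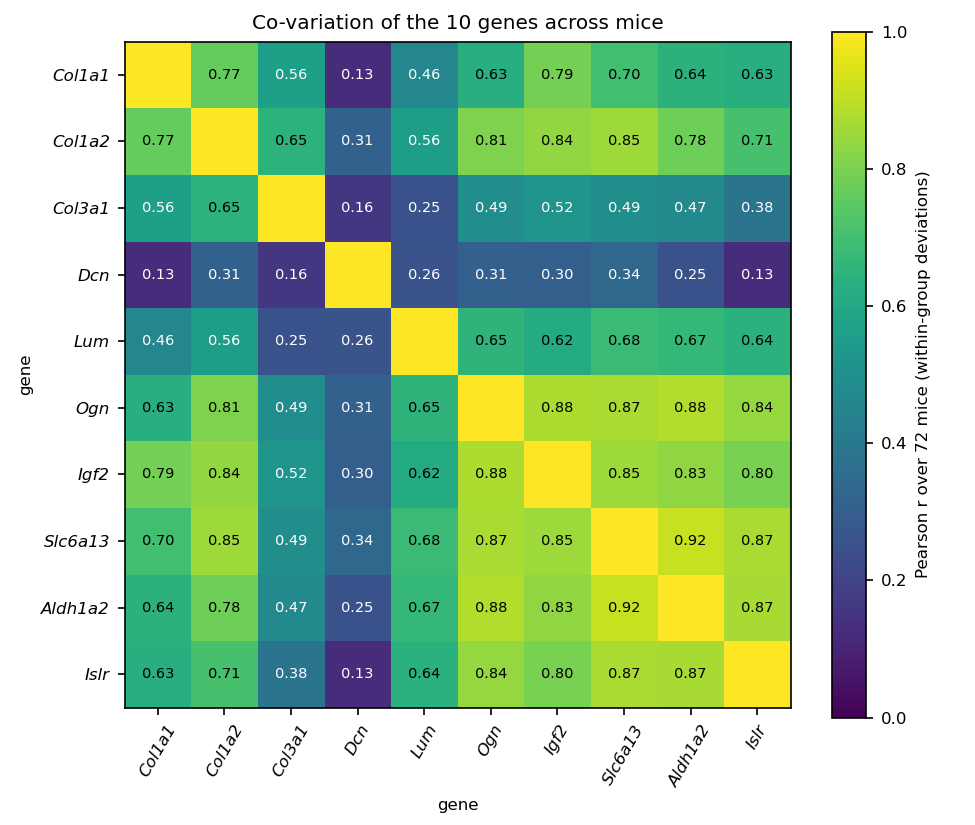
Pearson r over 72 mice, after subtraction of group means, for each pair of the 10 genes (colour scale from 0 to 1, values printed in the cells). The block of Ogn, Igf2, Slc6a13, Aldh1a2 and Islr lies between 0.80 and 0.92, and the row of Dcn between 0.13 and 0.34.

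Decorin stood apart from the other 9 genes. Its pairs had a median r of 0.26, from 0.13 with Col1a1 and with Islr to 0.34 with Slc6a13, and after adjustment over the 45 pairs 6 of 9 were below 0.05 by r and 3 of 9 by rho. Against the mean of the other 9 genes, Dcn had r = 0.28, whereas the remaining genes had r between 0.54 (Col3a1) and 0.93 (Slc6a13). No other member was among the 100 probe sets most alike to Dcn; the nearest stood at rank 806. The genes with 1 symbol most alike to Dcn were Dlk1 (r = 0.77), Fxyd6 (0.75) and Efna5 (0.72). The label of the set as fibroblast genes therefore described the co-variation of 9 of its members more closely than that of Dcn in this tissue. Dcn and Lum, which lie beside each other on chromosome 10, had r = 0.26 (rho = 0.26, permutation p = 0.0229 and 0.0301), and r fell to 0.19 without the 2 farthest mice.

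Col3a1 and Lum, the members of lowest mean level, were the other loosely tied ones. Col3a1 followed Col1a2 at r = 0.65 and Col1a1 at r = 0.56, but Lum only at r = 0.25 (permutation p = 0.0504). That pair depended on single mice: rho was 0.38 (permutation p = 0.0016), and without the 2 mice farthest from the median of Col3a1 r was 0.46. One such mouse was CC4 replicate 8, with a Col3a1 value of 4.24. Only 1 other member was among the 100 probe sets most alike to Col3a1, at rank 19. The genes most alike to Col3a1 were Dock6 (r = 0.72), Mir139 (0.67) and Nlrc5 (0.67), none of them of the matrix lists used here. Lum was most alike to Cp (0.71), Anpep (0.71) and Ddr2 (0.71), the last a receptor for fibrillar collagen.

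**Figure D3:**
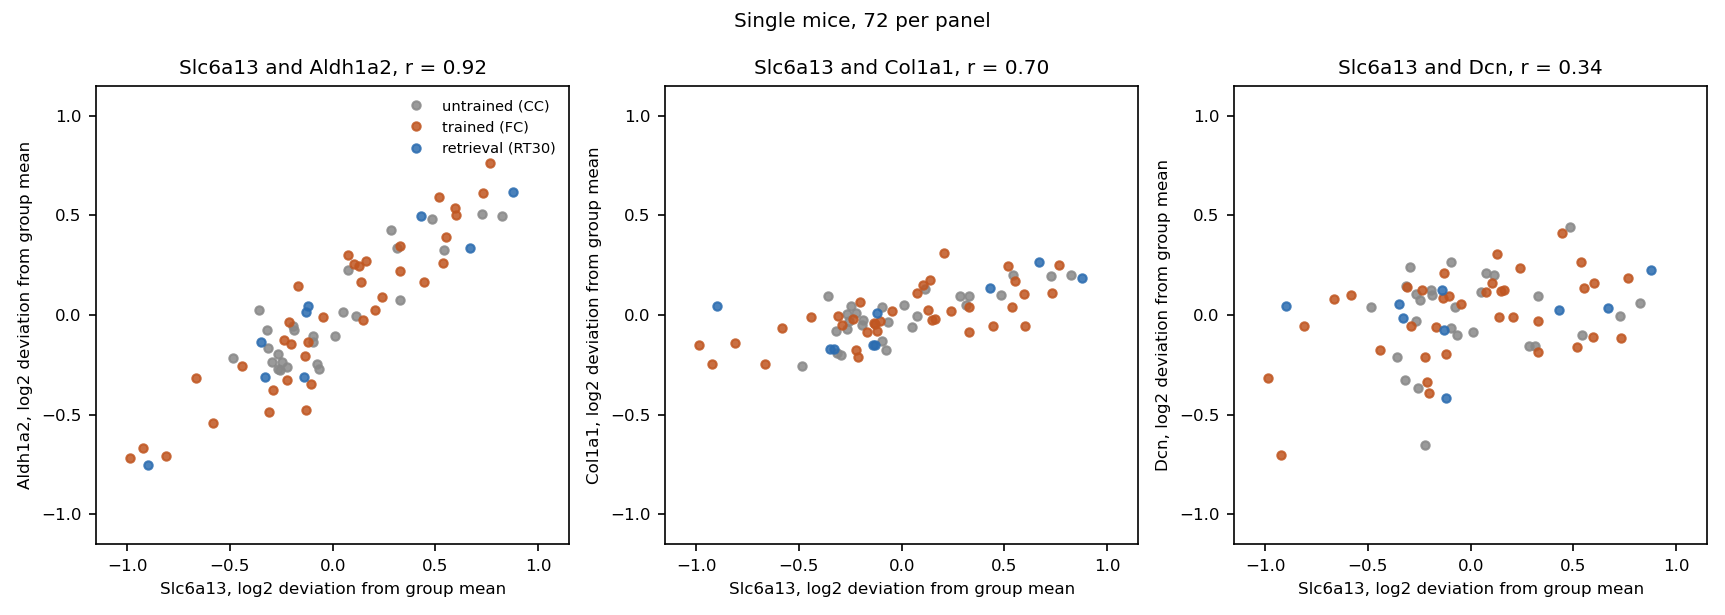
Deviation of each of the 72 mice from its group mean, in log2 units, for Slc6a13 (horizontal axis) against Aldh1a2, Col1a1 and Dcn (vertical axes); colours give untrained, trained and retrieval mice. Aldh1a2 follows Slc6a13 closely (r = 0.92), Col1a1 follows it over a narrower range (r = 0.70), and Dcn loosely (r = 0.34).

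The mean profile of the 10 genes, computed for each mouse from the standardised deviations, was compared with every probe set. Over all 35556, the 10 genes of the profile included, the median r was -0.00 and the 95th percentile 0.27. Above 0.8 were 45 probe sets (0.127%), members of the profile among them. The 15 genes nearest to the profile were Fmod, Ptgds, Slc13a4 and Slc6a20a (each r = 0.94), Slc13a3 (0.92), Gjb2, Slc6a12 and Aebp1 (each 0.91), Slc22a6, Bmp7 and Cped1 (each 0.90), and Mgp, Prg4, Itih2 and Bgn (each 0.89). Of these, fibromodulin (Fmod) and biglycan (Bgn) are collagen-binding proteoglycans, Ptgds makes prostaglandin D2, Gjb2 is the connexin of meningeal gap junctions, and the Slc genes are transporters of anions, amino acids and betaine. Of the 15, 6 belonged to the list of other meningeal and perivascular fibroblast markers. The genes that ran most against the profile were Fkbp1a and Otub1 (each r = -0.57). These correlations are descriptions over 72 mice that share the arrays of the 10 genes.

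Marker lists of the cell types a hippocampal dissection can hold were set beside the profile. Of the 28 other fibroblast markers, 21 had r above 0.5, with a median of 0.73. The 7 below were Col5a1, Col5a2, Col6a1, Col6a2, Col6a3, Dpt and Cemip, 5 of them collagen chains. Border macrophages, which live in the same membranes, had a median r of 0.43 over 8 genes, 2 of them above 0.5 (Mrc1 0.66 and F13a1 0.61), with Lyve1 at 0.46 and Cd163 at 0.33. The mean of that list had r = 0.76 with the profile, and the mean of the choroid plexus list 0.41. For the mean of the other fibroblast markers r was 0.96, and for that of the pericyte and smooth muscle list 0.695. The 12 pericyte and smooth muscle genes had a median of 0.35, and 5 exceeded 0.5 (Anpep 0.83, Vtn and Acta2 0.82, Myh11 0.74 and Tagln 0.71), while Pdgfrb was at 0.41, Rgs5 at 0.30 and Abcc9 at -0.06.

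Choroid plexus markers moved with the profile less closely than the other fibroblast markers did. The 17 genes had a median r of 0.35 (Ttr 0.35, Folr1 0.30, Kl 0.35), about that of the pericyte and smooth muscle genes. All were positive, from 0.24 to 0.64, and only Kcnj13 exceeded 0.5. The mean level of that list ranged from 4.96 to 6.88 over the mice. The endothelial genes had a median r of 0.28 (Cldn5 0.40, Pecam1 0.26, Flt1 0.20) and ranged from -0.01 (Emcn) to 0.68 (Cdh5). Astrocyte genes had a median of 0.02 (Gfap -0.05, Aqp4 0.14, Aldh1l1 0.09) and ranged from -0.33 (Slc1a3) to 0.62 (Gjb6). The median was 0.00 for oligodendrocyte genes (-0.13 to 0.05; Mog 0.01, Mag 0.02) and 0.01 for ependymal genes (-0.16 to 0.21; Foxj1 0.01). Microglial genes had a median of -0.13 (-0.33 to 0.05; P2ry12 -0.13, Tmem119 0.05, Cx3cr1 -0.20) and neuronal genes of -0.19 (-0.41 to 0.32; Rbfox3 -0.24, Snap25 -0.22, Syt1 0.08). For markers of neighbouring thalamic tissue the median was 0.16 (Tcf7l2 0.16, Prkcd -0.01, Rgs16 0.18), with a range from -0.43 (Lhx9) to 0.47 (Zic1), and for the 3 blood genes it was 0.07. The part of these cell types in the co-variation of the 10 genes was not tested. The profile had r = 0.56 with the fourth principal component of all probe sets (3.20% of the variance), 0.17 with the first, 0.05 with the second and 0.24 with the array median.

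**Figure D4:**
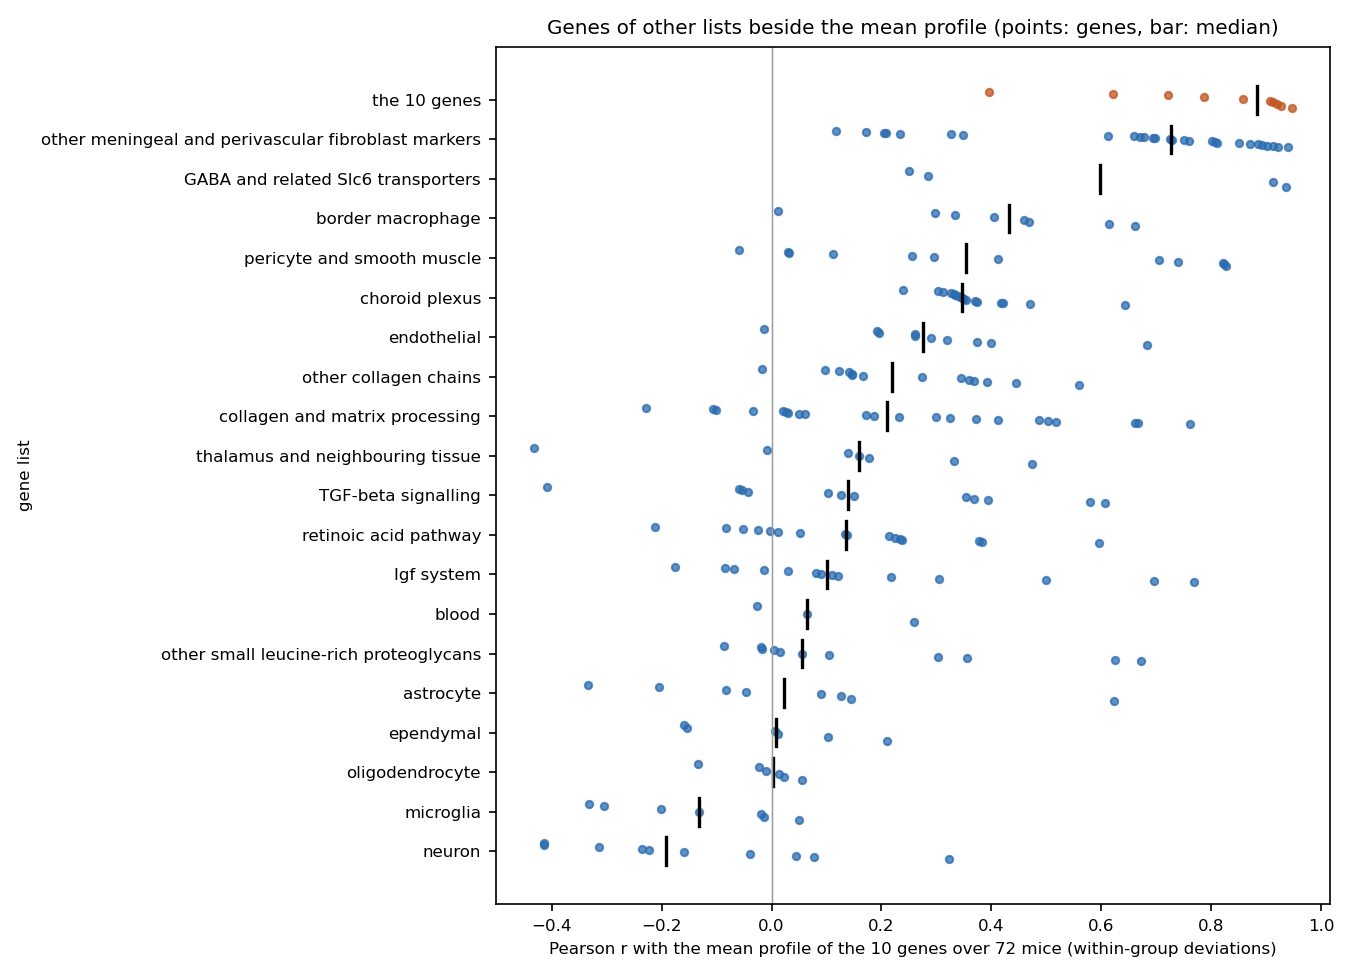
Pearson r with the mean profile of the 10 genes over 72 mice (horizontal axis) for the genes of each list (1 point per gene, the bar is the median of the list); the profile includes the 10 genes themselves, in orange. The other fibroblast markers have a median of 0.73, while neuron and microglia genes have medians below 0.

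Genes of the pathways to which the members belong moved with them only in part. Of 14 other collagen chains, only Col8a1 exceeded r = 0.5 with the profile, and the list had a median of 0.22. The basement membrane chains ranged from Col4a1 (0.10), Col15a1 (0.12) and Col4a2 (0.14) to Col18a1 (0.34) and Col4a5 (0.36). Of 22 genes for collagen folding, cross-linking and turnover, 5 exceeded 0.5: Timp3 (0.76), an inhibitor of matrix metalloproteinases, Fn1 (0.67), fibronectin, Serpinh1 (0.66), the collagen chaperone, Crtap (0.52) and the crosslinking enzyme Lox (0.50). Among the binding proteins of insulin-like growth factors, Igfbp2 (0.77) and Igfbp7 (0.70) followed the profile, and Igfbp2 was the second most alike gene to Igf2 itself (r = 0.91). The receptors Igf1r and Igf2r had r of 0.11 and -0.08. In the retinoic acid pathway, the plasma retinol carrier Rbp4 was at 0.60, and Aldh1a1 and Aldh1a3, which make the same product as Aldh1a2, were at -0.05 and 0.22. Of the transporters related to Slc6a13, Slc6a20a and Slc6a12 were in the 15 nearest genes, whereas Slc6a11 (0.25) and Slc6a6 (0.28) were not. Of 12 genes of TGF-beta signalling, a pathway that drives collagen synthesis, Ccn2 (0.61) and Tgfbr3 (0.58) exceeded 0.5 and Tgfb2 ran against the profile (-0.41). Of 11 other small leucine-rich proteoglycans, Omd (0.67) and Podn (0.63) exceeded 0.5.

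Of 17 pairs of a member with a neighbouring gene on its chromosome, 6 had an adjusted p below 0.05 (permutation of r within groups, adjusted over the 17). Slc6a13 and its neighbour Slc6a12, the betaine transporter BGT1, had r = 0.91 (rho = 0.88, adjusted p = 8.5e-05), and Ogn and osteomodulin (Omd) had r = 0.72 (rho = 0.68, adjusted p = 8.5e-05). The others were Col3a1 with Col5a2 (r = 0.41), Col1a1 with Sgca (0.37), Islr with Stra6 (0.37) and Igf2 with Ins2 (0.28). By rho 5 of the 17 passed, Igf2 with Ins2 not among them (adjusted p = 0.149), and Col3a1 with Col5a2 had r = 0.28 without the 2 farthest mice. Usp18, on the other side of Slc6a13, had r = 0.16 and Nol8, on the other side of Ogn, 0.05.

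Of the 10 members, 7 were in the RefSeq promoter table (GRCm38.p6, 250 bases before to 50 after the start). Because 9 members moved together, Col3a1 and Lum more loosely, the promoters of the 5 members with a single one in it are shown. They run 5′ to 3′ on the gene's strand, and capitals mark every match, on either strand, to CCAAT (the motif that NF-Y binds), to TATAAA (the TATA box) and to GGGCGG (the GC box).
Col1a2, chr6:4505368-4505667, plus strand: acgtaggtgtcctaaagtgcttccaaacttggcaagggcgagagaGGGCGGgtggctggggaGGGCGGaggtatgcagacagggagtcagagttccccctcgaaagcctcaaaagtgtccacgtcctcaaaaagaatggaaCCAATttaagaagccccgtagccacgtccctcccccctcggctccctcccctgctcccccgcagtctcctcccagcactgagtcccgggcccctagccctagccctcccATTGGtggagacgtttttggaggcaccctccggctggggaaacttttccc
Col3a1, chr1:45311288-45311587, plus strand: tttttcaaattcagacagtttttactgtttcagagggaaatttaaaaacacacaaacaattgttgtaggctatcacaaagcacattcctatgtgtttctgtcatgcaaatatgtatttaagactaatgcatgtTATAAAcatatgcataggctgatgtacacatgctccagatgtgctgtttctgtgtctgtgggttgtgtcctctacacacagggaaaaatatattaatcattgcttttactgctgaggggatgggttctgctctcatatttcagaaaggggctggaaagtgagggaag
Ogn, chr13:49607765-49608064, plus strand: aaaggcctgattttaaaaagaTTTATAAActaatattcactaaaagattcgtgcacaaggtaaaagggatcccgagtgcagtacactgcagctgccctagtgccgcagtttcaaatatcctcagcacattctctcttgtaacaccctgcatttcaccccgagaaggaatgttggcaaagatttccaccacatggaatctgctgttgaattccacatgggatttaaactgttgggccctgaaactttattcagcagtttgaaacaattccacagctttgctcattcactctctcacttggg
Aldh1a2, chr9:71215539-71215838, plus strand: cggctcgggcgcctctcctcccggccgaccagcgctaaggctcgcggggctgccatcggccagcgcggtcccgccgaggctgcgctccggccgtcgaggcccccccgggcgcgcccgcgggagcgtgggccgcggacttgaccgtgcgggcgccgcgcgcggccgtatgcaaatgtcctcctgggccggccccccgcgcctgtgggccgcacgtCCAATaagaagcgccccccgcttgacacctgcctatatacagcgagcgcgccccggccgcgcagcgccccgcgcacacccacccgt
Islr, chr9:58158505-58158804, minus strand: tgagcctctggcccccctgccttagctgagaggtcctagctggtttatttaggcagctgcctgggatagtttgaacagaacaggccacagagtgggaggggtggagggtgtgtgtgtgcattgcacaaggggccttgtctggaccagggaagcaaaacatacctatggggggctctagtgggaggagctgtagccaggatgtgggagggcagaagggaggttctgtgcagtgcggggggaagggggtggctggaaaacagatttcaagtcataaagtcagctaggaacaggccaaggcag
The letters differed between co-varying genes. Col1a2 held 2 matches to CCAAT and 2 to GGGCGG, and Aldh1a2 held 1 to CCAAT. Col3a1 held 1 match to TATAAA, and Ogn held 2, on opposite strands and overlapping. Islr held none of the 3 motifs in this window. Of all 32851 promoters of the table, 37.4% held CCAAT, 13.6% TATAAA and 35.7% GGGCGG. Counted in the same way, per promoter, 5 of the 12 promoters of members held CCAAT, 2 TATAAA and 4 GGGCGG. Counted per gene, 4 of the 7 members in it held CCAAT, 2 TATAAA and 3 GGGCGG in at least 1 of their promoters. A match is a description of the letters and not of a bound site.

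None of the 10 genes passed the threshold in any group comparison (limma, adjusted p below 0.1 over all probe sets, after subtraction of the first principal component). FC30 against CC30 called 0 of 10, with 0.256% of all probe sets called, and RT30 against CC30 0 of 10, with 0.278%. FC24 against CC30, FC4 against CC4, FC12 against CC12 and RT30 against FC30 each called 0 of 10, with 0% of all probe sets. RT30 against FC24 called 0 of 10 (0.152% of all). Among untrained mice, CC4 against CC30 called 0 of 10 (0.0731%), CC12 against CC30 0 of 10 (3.5%) and CC12 against CC4 0 of 10 (5.01%). The F test for any difference among the 8 groups called 0 of 10, with 10.1% of all probe sets called. The lowest adjusted p of a member there was that of Slc6a13 (0.254, unadjusted 0.0442), the single member below an unadjusted 0.05, as were 18.3% of all probe sets. The 10 other settings left the count of members called at 0 in every comparison they were run on.

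At 30 minutes the intervals were narrow for the collagens and wide for the variable genes. FC30 minus CC30 was -0.01 for Col1a1 (95% interval -0.13 to 0.11), 0.03 for Col1a2 (-0.11 to 0.18) and 0.00 for Col3a1 (-0.08 to 0.09). It was -0.06 for Slc6a13 (-0.39 to 0.28) and -0.04 for Ogn (-0.34 to 0.27). Changes in the measured signal of Col1a1 or Col3a1 by more than 0.13 on the log2 scale therefore lay outside their intervals. The interval of Slc6a13 reached -0.39. RT30 minus CC30 was largest for Dcn (0.16, interval -0.05 to 0.37, adjusted p = 0.854), with 8 of 9 RT30 mice above the CC30 mean. No member was below an unadjusted p of 0.05 in either comparison, while 6.76% of all probe sets were for FC30 and 6.91% for RT30; the same held for RT30 against FC30 (3.9% of all). At FC30, 16 of 17 choroid plexus genes lay above 0 with a median of 0.25 and a highest difference of 1.56. Of the 17, 8 were below an unadjusted p of 0.05 and 0 were called. The 10 fibroblast genes had a median of 0.01.

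The largest differences were at 4 h, without passing the threshold. In Ogn, the lowest, median and highest mice were 4.87, 5.56 and 6.47 in CC4 and 5.31, 5.92 and 6.86 in FC4. In Aldh1a2, they were 5.47, 5.63 and 6.24 in CC4 and 5.47, 6.28 and 6.73 in FC4. The FC4 medians were above those of CC4 for both genes and for Slc6a13, and the groups overlapped over most of their range. FC4 minus CC4 was 0.49 for Ogn (95% interval 0.02 to 0.96, limma unadjusted p = 0.0405), with 8 of 9 FC4 mice above the CC4 mean. It was 0.42 for Slc6a13 (0.04 to 0.80, limma unadjusted p = 0.0337), with 8 of 9 above, and 0.40 for Aldh1a2 (0.05 to 0.75, limma unadjusted p = 0.0267), with 6 of 9. All 3 had an adjusted p of 0.922, and 5.35% of all probe sets were below an unadjusted 0.05. Without the arrays that stood apart, which took CC4 replicate 8 out of this comparison, 1 of the 10 genes rather than 3 was below 0.05, and the differences were 0.44 for Ogn (-0.05 to 0.92), 0.38 for Slc6a13 (-0.02 to 0.77) and 0.38 for Aldh1a2 (0.01 to 0.75).

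**Figure D5:**
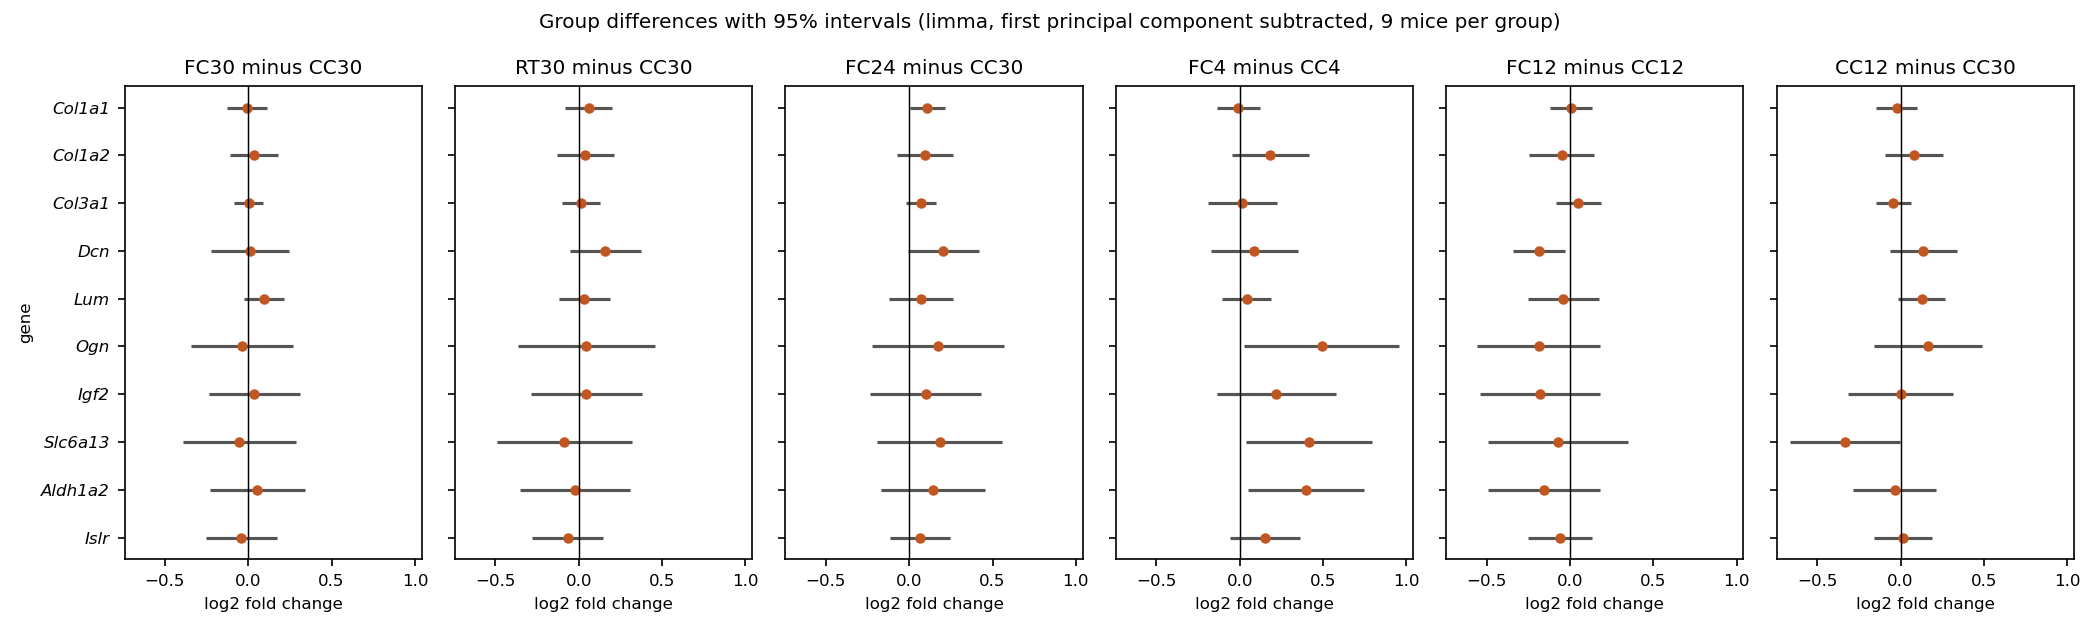
Log2 difference between groups (points) with its 95% interval (bars) for the 10 genes in 6 of the comparisons, 9 mice per group, from limma after subtraction of the first principal component. The intervals of Ogn, Slc6a13 and Aldh1a2 lie above 0 at 4 h, where their adjusted p is 0.922, and none of the genes passed the threshold.

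The other fibroblast markers had similar values at 4 h. Of 28, 26 lay above 0 with a median of 0.19, 15 were below an unadjusted 0.05 and 0 were called. Fmod was at 0.72 (interval 0.13 to 1.32, adjusted p = 0.922), Slc22a6 at 0.42 (0.07 to 0.76) and Slc13a3 at 0.36 (0.09 to 0.63). Among the 10 members 9 lay above 0 with a median of 0.17, and the median over all probe sets was -0.01. Since these genes rise and fall together between mice, their directions are not separate observations. Border macrophage genes had a median of 0.05 (6 of 8 above 0) and choroid plexus genes of -0.18 (1 of 17 above 0) in the same mice. The mean of the 8 border macrophage genes ranged from 4.17 to 4.39 in CC4 and from 4.12 to 4.44 in FC4; its part in the difference was not tested.

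At 12 h, FC12 minus CC12 was below 0 for 8 of 10 members, with a median of -0.07. Dcn had lowest, median and highest values of 9.67, 9.92 and 10.09 in CC12 and 9.36, 9.78 and 9.96 in FC12. Its difference was -0.19 (95% interval -0.34 to -0.03, limma unadjusted p = 0.0235, adjusted p = 1), with 8 of 9 FC12 mice below the CC12 mean, and 4.06% of all probe sets were below an unadjusted 0.05. The training effect at 4 h exceeded that at 12 h by 0.68 for Ogn (0.10 to 1.26, limma unadjusted p = 0.0223) and by 0.56 for Aldh1a2 (0.07 to 1.04, limma unadjusted p = 0.0248). Without the arrays that stood apart, 0 of 10 rather than 2 of 10 members were below an unadjusted 0.05, with 0.59 for Ogn (-0.03 to 1.21) and 0.51 for Aldh1a2 (-0.01 to 1.03). The adjusted p was 0.988 for both genes with all arrays; the contrast called 0% of all probe sets and had 4.84% below an unadjusted 0.05. The contrasts of the effect at 30 minutes with those at 4 h and 12 h called 0 of 10 members, with 0.0703% and 0.115% of all called, and had 0 of 10 below an unadjusted 0.05, with 7.81% and 4.83% of all.

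At 24 h all 10 members lay above CC30, with a median of 0.10, and 0 were called. Col1a1 had lowest, median and highest values of 6.19, 6.43 and 6.52 in CC30 and 6.34, 6.47 and 6.66 in FC24, a difference of 0.11 (95% interval 0.00 to 0.21, limma unadjusted p = 0.0446, adjusted p = 1). It was the single member below an unadjusted 0.05, as were 4.31% of all probe sets. With the arrays that stood apart left out, Col1a1 was at 0.09 (-0.0025 to 0.18, limma unadjusted p = 0.0561). Dcn was then the single member below an unadjusted 0.05 (0.26, 0.04 to 0.49, limma unadjusted p = 0.0259, adjusted p = 0.992). Over the alternatives this count ran from 0 to 2. RT30 minus FC24, which shares the FC24 mice, was below 0 for all 10, with a median of -0.06 and a lowest unadjusted p of 0.264 (Slc6a13, -0.27, interval -0.76 to 0.22); 6.2% of all probe sets were below 0.05. Choroid plexus genes followed the same signs in both comparisons, with 17 of 17 above 0 at FC24 (median 0.17) and 0 of 17 in RT30 minus FC24 (median -0.21).

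The groups dissected at different times of day were compared last. In CC12, taken at ZT15, against CC30, Slc6a13 was at -0.33 (95% interval -0.66 to -0.00, limma unadjusted p = 0.0482, adjusted p = 0.369), and the other 9 members lay between -0.04 and 0.16. It was the single member below an unadjusted 0.05 in CC12 against CC30 (13.4% of all probe sets), and 0 were in CC4 against CC30 (6.21%) or CC12 against CC4 (13.9%). Without the arrays that stood apart, a setting added after seeing the data, Slc6a13 was at -0.47 (-0.76 to -0.18). Its adjusted p was then 0.112, the lowest of any member. With array weights Slc6a13 was at -0.27, and 0 of 10 members were below an unadjusted 0.05 in CC12 against CC30. That count was also 0 with all groups in one fit and with no component or 2 components subtracted. It was 0 as well with the unmoderated test and with the replicate number as a block. The remaining alternatives left it at 1. Of the 22 collagen and matrix processing genes, 5 were called higher and 1 lower in CC12 than in CC30, where 3.5% of all probe sets were called, 730 higher and 513 lower; the difference between this list and the members was not tested. Ctsk, the collagen-degrading cathepsin K, rose by 0.48 (adjusted p = 0.000298), P4ha1 and P4ha2, catalytic subunits of prolyl 4-hydroxylase, each by 0.24 (adjusted p = 0.00312 and 0.00857), and Timp3 by 0.22 (adjusted p = 0.0164). Mmp14, a membrane-bound metalloproteinase, fell by 0.35 (adjusted p = 0.000687). With the mean profile of the 10 genes, r was 0.06 for Ctsk, 0.05 for P4ha1, -0.03 for P4ha2, 0.41 for Mmp14 and 0.76 for Timp3. The cells in which these genes changed were not tested. Against CC4, with 5.01% of all probe sets called, the same list had 5 called higher and 1 lower, P4ha1 with 0.38 (adjusted p = 0.000452), Ctsk with 0.39 (adjusted p = 0.00194), and the lysyl hydroxylase Plod2 with -0.22 (adjusted p = 0.0143). Ctsk was also called in FC30 (0.37, adjusted p = 0.0117) and RT30 (0.44, adjusted p = 0.053) against CC30, which share their controls.

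In CC12 against CC30, 2 of 14 genes of the Igf system and 2 of 16 of the retinoic acid pathway were called, beside 3.5% of all probe sets. Igfbp3 was higher in CC12 than in CC30 (0.28, adjusted p = 0.00668) and CC4 (0.34, adjusted p = 0.00166), and Igfbp5 was lower than in CC30 (-0.16, adjusted p = 0.0388). Igf2 itself was at -0.00 (interval -0.32 to 0.32) between CC12 and CC30. The retinoid receptor Rxra was higher (0.18, adjusted p = 0.0047) and the retinaldehyde reductase Dhrs3 lower (-0.21, adjusted p = 0.0123) in CC12 than in CC30, where Aldh1a2 was at -0.03 (-0.28 to 0.21). None of the 14 other collagen chains was called between the untrained groups. Of the 12 pericyte and smooth muscle genes, 6 lay above 0 in CC12 minus CC30, with a median of -0.03. In that list 3 were called, all lower in CC12: Pdgfrb (-0.14, adjusted p = 0.0114), Vtn (-0.19, adjusted p = 0.0407) and Kcnj8 (-0.17, adjusted p = 0.0981). Over all 8 groups, the F test called 10.1% of all probe sets, 9 of the 22 processing genes, 2 of the 28 other fibroblast markers (Col6a3, adjusted p = 0.0868, and Cemip, adjusted p = 0.0962) and 0 of the 14 other collagen chains; the shares of the last 2 lists are below that of all probe sets.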

How the data were processed

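Total hippocampal RNA of 72 mice was hybridised to Affymetrix mouse gene arrays (version 1.1, 1 array per mouse). The authors normalised the scans by robust multi-array averaging (RMA), and the deposited table holds log2 intensities of 35556 probe sets, with no missing values; the genome build behind the annotation is not given in the sources used here. Of the probe sets, 21218 had 1 gene symbol, 1881 several and 12457 none, and no other column was used. Array data carry no read depth, and the number of mice limits the precision. Levels, spread and correlations use the deposited values. Before groups were compared, the leading principal component of the 72 arrays (probe sets centred on their means) was removed, a step the study's methods also name. It held 17.4% of the variance, a share other than the one given there, so it may not be the study's component. Then limma (version 3.58.1, R 4.3.3) was fitted to the 18 arrays of each pair of groups. P-values are two-sided and adjusted by Benjamini-Hochberg over all probe sets, with a threshold of 0.1. The F test and the 3 contrasts between training effects used all arrays.

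Correlations were computed with numpy 2.4.6 and scipy 1.17.1 on deviations from group means, and p-values came from 100000 permutations within groups. The members and the 19 other gene lists were chosen with earlier results of these data known. Of 236 other genes listed, 215 had a probe set. Named genes were the 10 members, the 15 genes most alike to their mean profile, the 3 most alike to each member, the genes of other lists past the threshold (up to 5 per list and comparison) and the markers listed at the head of each cell type; genes with r above 0.5, the receptors and other pathway genes given beside them, the genes at the low end and those of the F test were chosen after their values were seen. Alternatives were no component or 2 components subtracted, all groups in one fit, trend and robust estimation, array weights, 25% of the dimmest probe sets left out, only probe sets with 1 symbol, an unmoderated equal variance test, and the replicate number as a block; leaving out the 6 arrays that stood apart was added after seeing the data. The scripts were tested on simulated data. The labels do not say that a replicate number marks a shared day. Over all probe sets, same-numbered mice of different groups had a median correlation of deviations of 0.03 (-0.27 to 0.78), against 0.00 for other numbers, so the block was kept as an alternative.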

Additional observations from a re-analysis of the deposited data

Results flagged for a closer look

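In 7 of the 80 combinations of a gene with a group, a single mouse lay far from the other 8 by Dixon's ratio of gap to range, a rule that chance alone meets in about 1 in 20 groups. For Col3a1, CC4 replicate 8 was at 4.24 where the other mice lay between 4.83 and 5.08, and CC12 replicate 6 was at 4.60 where they lay between 4.95 and 5.13. For Dcn, CC4 replicate 4 was at 9.19 (others 9.69 to 10.11), FC4 replicate 8 at 9.23 (others 9.77 to 10.24) and RT30 replicate 8 at 9.49 (others 9.83 to 10.13). For Lum, FC24 replicate 2 was at 5.47 where the others lay between 4.54 and 4.92. For Ogn, CC30 replicate 5 was at 6.51 where the others lay between 5.38 and 5.93. Of these mice, CC4 replicate 8 is also among the arrays that stood apart on the second principal component.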

How the results depend on the processing

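None of the 10 genes was called under any alternative in any comparison, and the lowest adjusted p of a member was 0.112 (CC12 against CC30 without the 6 arrays that stood apart). All 240 values recomputed under the alternatives kept their side of the threshold where one applied. Many of these values are counts, SDs or correlations, which have no direction. The fold changes among them kept their sign, but they cover only the member of lowest p in each comparison. Other members could change sign. Without the arrays that stood apart, Igf2 in FC30 minus CC30 went from 0.035 to -0.051. Slc6a13 in FC12 minus CC12 went from -0.07 to 0.02. The single fit, the trend, the probe set filters, the unmoderated test and the block leave a fold change as it was by construction. With the replicate number as a block, 0 of the 10 genes were called, and 4 rather than 3 were below an unadjusted p of 0.05 at 4 h. Below it were also 2 rather than 0 in RT30 against FC24, and 2 rather than 1 in the F test among the 8 groups. In FC24 against CC30 and in CC12 against CC30, 0 rather than 1 were below it. With the block, the median r of the 45 pairs was 0.61. That median was 0.65 and 0.67 with 1 and 2 components subtracted, 0.59 with group means kept and 0.66 without the arrays that stood apart. The replicate numbers have no stated batch; the mean profile lay above its group mean in 6 of 8 groups for number 3, and below it in 6 of 8 for numbers 6 and 7 and in 7 of 8 for number 8. The cause was not tested. Each gene had a single probe set, so that averaging several probe sets of a gene gave no value, and the local false discovery rate of the study's methods was not run. With 9 mice per group, the 95% interval of Ogn at 4 h ran from 0.02 to 0.96.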
